A study of Homo sapiens with 30 samples.

Results

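The 539 regions described here are the complete deposited list of nuclear off-target regions for the ND5.1 editor, 539 of the 1139 distinct regions in the 4 editor lists of the study. They were mapped by Detect-seq in HEK293T, a transformed human embryonic kidney line. All rows of the list were taken, and the class of a region was read from the token in its identifier. The study holds 30 libraries, of which 8 name ND5.1 in the title. The labels attach the list to all 8, and which of them the authors pooled into it is not given in the sources used here.

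Every ND5.1 library came from HEK293T cells treated with the L1397N orientation of the editor or a form of it, and differed as follows. ND5.1-All was sequenced as 2 pulldown libraries and 1 input library, and Lipo2000-ND5.1-All as 2 pulldown libraries. Dead-ND5.1-All, with dead DddA, had 1 pulldown library. DddA.N_ND5.1R_MTS, without the left TALE array, and ND5.1L_DddA.C_MTS, without the right one, had 1 pulldown library each. Values per library were not used here, so no number below has an error between replicates. All intervals are 95% Wilson intervals over regions and cover counting error only.

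A DdCBE is a base editor for mitochondrial DNA. A bacterial deaminase that acts on double-stranded DNA, DddA, is split in 2 inactive parts, each is fused to a TALE array that reads one side of the target, and a mitochondrial targeting sequence (MTS) carries both to the organelle. The rejoined deaminase turns cytosine into uracil, by preference where the cytosine follows a thymine. ND5 is a mitochondrial gene for a subunit of respiratory complex I. Detect-seq replaces deoxyuridine in extracted genomic DNA with labelled bases, pulls the labelled fragments down and reads their positions across the whole genome. A region in the list is therefore a nuclear stretch where label was found, not a measured mutation.

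Sequences were read first, since they show what a region is. RefSeq promoter windows on GRCh38, of 300 bases each around a transcription start site, held 21 of the 539 regions whole, 16 of class IND and 5 of class IND.Extend. The listed strand was read 5′ to 3′, with the region in capitals and 6 bases of context on either side in lower case. At the positions as printed in the file, counted from 1 with the end included, the first base was a cytosine in 21 of 21 regions and the last base in 21 of 21. The first cytosine followed a thymine in 20 of 21, the exception being the class IND.Extend region near C1R. With positions moved by 1 base down or up, the last base was a cytosine in 5 and 6 of the 21. Across all promoter windows and both strands, 20.8% of cytosines followed a thymine. In these 21 regions, 3.90% of the list and none of class DL or DR, the listed strand thus started and ended with cytosine. The same 21 regions served to check how the file counts positions. How the authors set the ends of a region is not stated, so the cytosine ends may be part of that rule and are only described.

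The strongest region with a sequence lay upstream of SLC30A5, which encodes a zinc transporter (chr5:69093805-69093830, minus strand). Others of class IND are shown because some of them share letters. They lay in the windows of LOC124900823 (chr4:183472417-183472431, minus), DMKN (chr19:35510560-35510579, minus), RUFY4 (chr2:218034906-218034916, plus) and LOC124904953 (chr20:63381995-63382017, plus).
SLC30A5: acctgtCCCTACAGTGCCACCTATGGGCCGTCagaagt
LOC124900823: aagtgtCCTGGTGCTGCCCCCtggtgg
DMKN: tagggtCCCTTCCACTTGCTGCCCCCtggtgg
RUFY4: tggcctCCCTGTGCCCCctggtg
LOC124904953: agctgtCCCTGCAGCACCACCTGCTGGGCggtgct

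The LOC124900823, DMKN and RUFY4 sequences held the word TGCCCCCTGGTG in common, which stood in 0.0487% of all promoter windows (17 of 34943, either strand). LOC124900823 and DMKN shared a longer word of 16 letters, TGCTGCCCCCTGGTGG, which 2 of 34943 promoter windows held, namely their own. The class IND region in the window of SPATA41, not shown, shared CCCCCTGGTGG with both, a word in 36 of 34943 windows. Words of this kind are known from the binding motif of CTCF, an insulator protein. They were picked after the sequences were seen, so their rarity follows in part from the choice, and they describe letters and do not show that the protein was bound.

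A further pair of class IND regions lay across the start sites of genes of unlike function. ZNF330 encodes a zinc finger protein (chr4:141220892-141220908, minus), and DNAJC19 a co-chaperone of the mitochondrial inner membrane (chr3:180989770-180989782, minus).
ZNF330: ggacgtCCTTTTACGACAGCAGCgcctta
DNAJC19: ccgcgtCCCCTTTTACGACagtttt
They shared the word CCTTTTACGACAG of 13 letters, which 4 of 34943 promoter windows held on either strand, the pair's own included. The pair was picked for its long shared word, so its rarity is a description.

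Class IND.Extend sequences are shown because their bases differ to the eye from those of class IND. Those shown lay near CENPF, a kinetochore protein gene (chr1:214603010-214603023, plus), SAP30L-AS1 (chr5:154445807-154445819, plus) and LOC124904419 (chr1:151198489-151198502, plus).
CENPF: cgtggtCTCCGTCTCCCCGCaacaac
SAP30L-AS1: cctcttCCACTTTCTCTACtttgaa
LOC124904419: tttgctCCTTTTTTCTCCCCaatgag
On the listed strand, guanine made up 0% to 14.3% of the 5 class IND.Extend regions, with a median of 2%, and 7.69% to 29.7% of the 16 class IND regions, with a median of 20.0%. Cytosine and thymine together had medians of 84.6% and 61.5%. The IND.Extend regions not shown, near ATXN7 and C1R, had 78% and 69.2%, less than each of those shown. The ranges overlapped, and 5 regions near promoters need not stand for the 167 of their class.

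Class divided the list into a large shared part and a part that was almost wholly its own. Class IND held 333 of 539 regions (61.8%, 57.6 to 65.8), class IND.Extend 167 (31.0%, 27.2 to 35.01), class DR 26 (4.82%, 3.31 to 6.97) and class DL 13 (2.41%, 1.41 to 4.08). The files do not define these tokens. Of the class IND regions, 248 were also in the ND5.3 and ND6 lists, 24 in all 4 lists, 11 in ND5.3 alone of the others, 8 in ND6 alone and 42 in no other list. Of class IND.Extend, 166 of 167 were in no other list, and the exception was also in ND5.3. Over all classes, 292 of 539 regions (54.2%) were in another list. The ND6 list holds no IND.Extend regions, the ND4 list holds 35, and the ND5.3 list names no classes. Sharing was scored by position alone, whatever the class, and 0 of the 167 IND.Extend regions were in ND4. How far the class make-up of the lists limits this sharing was not tested. All 39 regions of classes DL and DR were in no other list.

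The signal value is the authors' own score per region, with no stated normalization, and was used within the list only. It ran from 3.88 to 148.6, with a median of 10.99 and quartiles of 7.98 and 17.4. The strongest 54 regions, 10.0% of the list, held 31.4% of the summed signal, and the strongest 135 held 53.3%. Most regions were therefore weak beside a short upper tail.

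By class, the median signal was 12.5 for IND, 9.47 for IND.Extend, 8.97 for DR and 8.21 for DL. The middle ranges overlapped broadly, with quartiles of 8.86 and 20.2 in IND and of 7.23 and 13.4 in IND.Extend. Class IND made up 41 of the 50 strongest regions and 60 of the 135 weakest. Class IND.Extend made up 6 of the 50 strongest and likewise 60 of the 135 weakest. No test was made of signal between classes, because regions of pooled lists carry no replicate error.

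**Figure D1:**
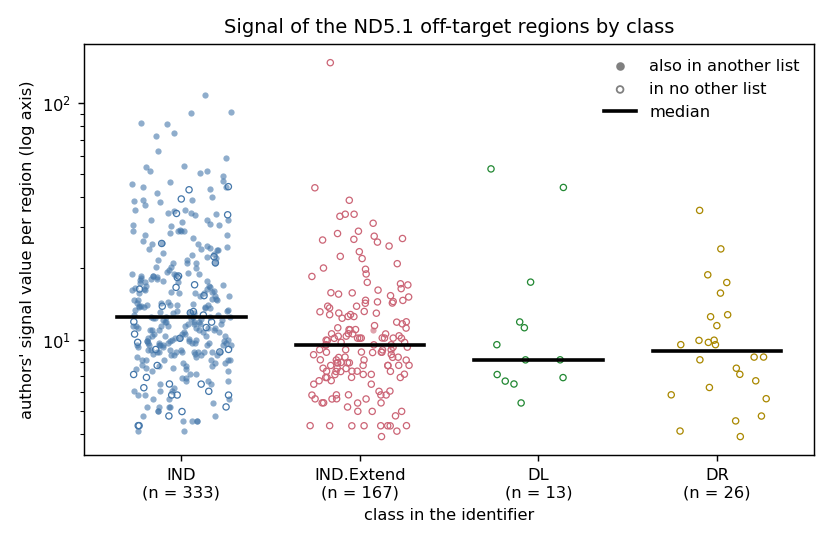
Signal value of each ND5.1 region on a log axis, by class, with a bar at the median and open points for regions in no other list. The medians run from 8.21 in class DL to 12.5 in class IND, and the single highest point, 148.6, is an open point of class IND.Extend.

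Strand separated the classes. The list as a whole had 245 regions on the plus and 294 on the minus strand (54.5% minus, 50.3 to 58.7). Class IND had 184 plus and 149 minus (44.7% minus, 39.5 to 50.1), and class IND.Extend had 61 plus and 106 minus (63.5% minus, 55.9 to 70.4). The share on the plus strand was lower in IND.Extend than in IND by 18.7 percentage points, with an interval of the difference from -27.4 to -9.48 (Fisher's exact test, two-sided, adjusted p = 0.00048 over 5 tests, with regions of this pooled list as units). The overlapping pairs described below were all IND.Extend on the minus strand. With neighbours within 1 kb merged, the difference was -18.0 points (Fisher's exact test, two-sided, adjusted p = 0.00094). All 13 DL and all 26 DR regions were on the minus strand. In the ND6 list, 47 of 91 DL and 14 of 29 DR regions were on the minus strand, and in the ND4 list 0 of 1 DL and 11 of 11 DR regions. The minus strand held 20 of 36 class IND (55.6%) and 24 of 35 class IND.Extend regions (68.6%) in ND4, and 278 of 596 class IND regions (46.6%) in ND6. Every one of the 280 regions shared with ND6, and of the 24 shared with ND4, carried the same strand in both lists.

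**Figure D2:**
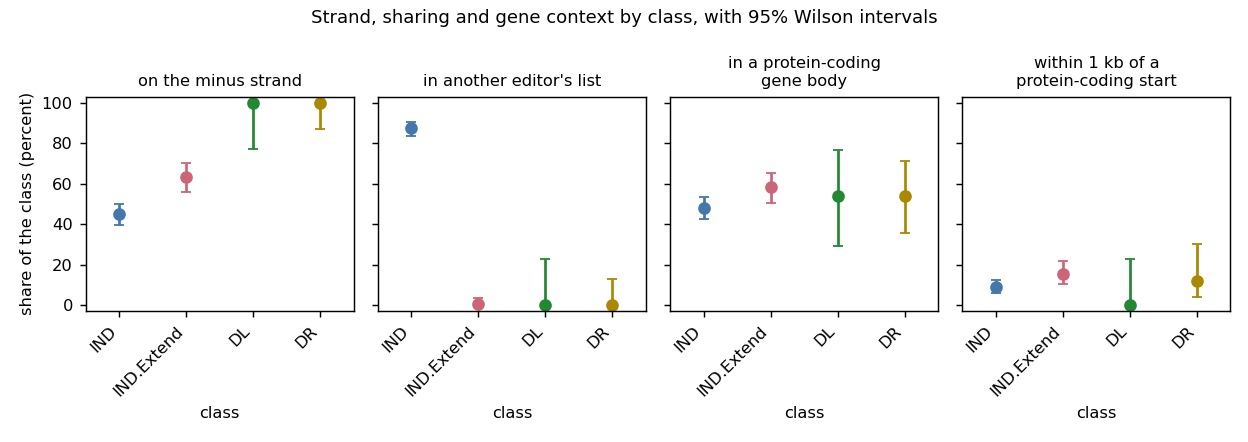
Share of each class on the minus strand, in another editor's list, in a protein-coding gene body and within 1 kb of a protein-coding start site, in percent, with 95% Wilson intervals. The minus-strand share rises from 44.7% in IND to 63.5% in IND.Extend and 100% in DL and DR, and sharing falls from 87.4% in IND to 0.599% in IND.Extend. The ND6 list holds no regions of class IND.Extend.

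Against the direction of genes the listed strand was close to even. Among 269 regions inside exactly 1 protein-coding gene, 229 lay in a gene whose strand the promoter table gives. The listed strand was the gene's own in 121 of 229 (52.8%, 46.4 to 59.2), in 74 of 131 of class IND (56.5%, 47.9 to 64.7) and in 34 of 80 of class IND.Extend (42.5%, 32.3 to 53.4).

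Regions were short. Class IND spanned 6 to 67 bases with a median of 19, and class IND.Extend 4 to 57 with a median of 25. Across regions, which are not independent replicates, longer ones tended to have a higher signal, with a Spearman correlation of 0.24 over 333 class IND and 0.39 over 167 class IND.Extend regions. Both measures rest on the same pooled reads.

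Classes DL and DR had fixed lengths, 16 bases in every DL and 14 in every DR region. Their rows name a further interval that differs from the region, while in all 500 IND and IND.Extend rows both are the same. The further interval overlapped the region in 12 of 13 DL and 25 of 26 DR rows. In those rows it began 3 to 6 bases below the region's first position in DL and 4 to 6 in DR, so its lower edge was nearly fixed while its upper edge varied. Its length ran from 13 to 66 bases in DL and from 8 to 36 in DR. In the remaining DL row, inside HSPA8, a constitutive heat shock chaperone gene, and the remaining DR row, inside PKP4, a plakophilin gene, 10 bases separated the interval from the region.

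**Figure D3:**
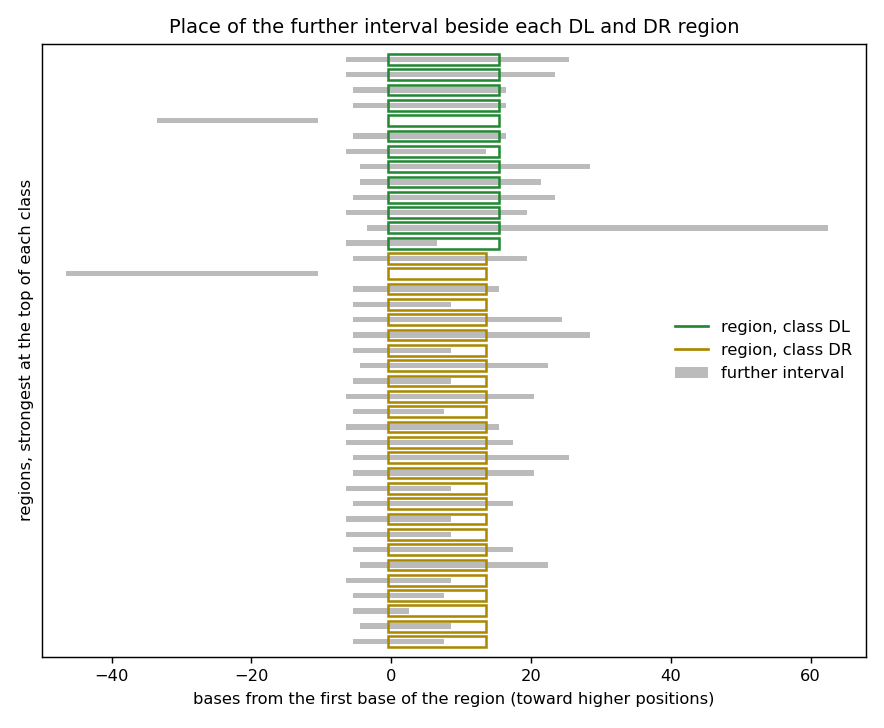
Each DL and DR region (outlined box) with the further interval of its row (grey bar), in bases from the region's first position. The grey bars begin 3 to 6 bases before the boxes in DL and 4 to 6 in DR, except in 1 DL and 1 DR row where the bar lies apart.

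Protein-coding gene bodies held 278 of 539 regions (51.6%, 47.4 to 55.8), and a further 57 lay only in genes of other types, 42 of these in lncRNA genes alone. No gene of any type held 204 regions (37.8%). The share of the genome in protein-coding bodies was not computed, so 51.6% is not read as a lean to genes over the genome. The share in protein-coding bodies was 48.0% in class IND (160 of 333), 58.1% in IND.Extend (97 of 167), and 53.8% in both DL (7 of 13) and DR (14 of 26). IND.Extend minus IND was 10.0 points (0.75 to 19.0), and fell short of significance (two-sided Fisher test, adjusted p = 0.0557).

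ND5.1 regions that ND6 lacked were set against ND6 regions that ND5.1 lacked, so that no region stood on both sides. Protein-coding bodies held 146 of 259 (56.4%) and 189 of 436 (43.3%), a difference of 13.0 points (5.34 to 20.5, counting error only). Each editor has 1 pooled list, so no p-value is given for the editors, and the lean to gene bodies was known when the list was chosen. Class differed between these sides too, since ND6 has no IND.Extend regions. With class IND alone on both sides the values were 52.8% of 53 and 40.8% of 316, 12.01 points apart (-2.26 to 25.8). Over whole lists, which share regions, the shares were 51.6% in ND5.1, 44.8% in ND6, 43.9% in ND5.3 and 53.0% in ND4.

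Median signal was close inside and outside genes. It was 10.57 in the 278 regions inside protein-coding genes and 11.2 in the 261 outside. Within class IND the medians were 12.5 and 12.5, and within IND.Extend 10.1 and 8.30.

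The regions inside genes were spread thinly. They hit 296 of 19821 protein-coding genes (1.49%), 285 of them with a single region and 11 with 2. A single class IND region lay in 22 overlapping protocadherin gamma genes, and without it 274 genes (1.38%) were hit. Hit genes had a median length of 104.8 kb, against 24.5 kb for all protein-coding genes, and 51.7% of hit genes exceeded 100 kb against 16.9% of all. Without the protocadherin region the hit genes had a median of 102.1 kb, with 50.4% over 100 kb. No comparison matched for gene length was made.

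The 11 genes with 2 regions showed 2 kinds of pair. In SLIT1, a guidance ligand, SHROOM4, an actin regulator, and THAP2, a zinc finger gene, 2 class IND.Extend regions overlapped and had the same end and strand. The THAP2 values were 19.8 and 17.5, those of SHROOM4 20.9 and 20.1, and those of SLIT1 16.2 and 12.5. One more such pair, at 23.5 and 22.02, lay 1410 bp from NHLH2. These 4 pairs are each 1 place counted as 2 regions.

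The other genes held separate regions. STUM held the class IND region ranked 4, at 91.3 on the plus strand, and a class IND.Extend region at 9.91 on the minus strand. MAGI1, a scaffold of cell junctions, held an IND.Extend region at 31.1 and an IND region at 6.91. NUB1 held regions at 13.3 and 11.5. RANBP2, a nuclear pore gene, held regions at 11.9 and 9.50, both counted to it through a RefSeq span far longer than its usual transcript. In FOXN3, a forkhead repressor (9.94 and 7.11), OTUD7B (8.20 and 6.70), KANSL1 (7.78 and 4.31) and EIF3D, a translation factor subunit (5.62 and 4.32), both regions were below the list's median.

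Spacing was wide. With each overlapping pair merged, 535 places remained, the median distance to the nearest other one was 1206 kb, and 19 neighbouring pairs were under 100 kb apart. Chromosome 1 held 75 regions, 46 of IND and 27 of IND.Extend, and chromosome 6 held 36. On chromosome 10, IND.Extend outnumbered IND by 17 to 9, with each region of the overlapping SLIT1 pair counted. It did so by 8 to 7 on chromosome 13 and by 4 to 3 on each of chromosomes 18 and 21. Chromosome lengths and copy numbers were not taken into account.

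Start sites of protein-coding genes were taken from the promoter table, which holds 15813 of the 19821 genes and none on chromosome 8, so shares are over the other 522 regions. Within 1 kb of a start site lay 56 of 522 (10.7%, 8.35 to 13.7), and 34 of these had their middle upstream of it. The share of the genome that lies so near a start site was not computed. The share was 8.75% in IND (28 of 320) and 15.2% in IND.Extend (25 of 164), a difference of 6.49 points (0.57 to 13.3) short of significance (two-sided Fisher test, adjusted p = 0.0557). Within 5 kb the same difference was 10.6 points and passed (Fisher's exact test, adjusted p = 0.0106). Of ND5.1 regions absent from ND6, 12.6% lay within 1 kb of a start site, and of ND6 regions absent from ND5.1, 13.7% did, which is -1.10 points (-6.17 to 4.41, counting error only).

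The strongest of these 56 was the strongest region of the whole list. It had a signal of 148.6, was of class IND.Extend on the minus strand, and lay in GOLGB1 (giantin, a large Golgi membrane protein), 636 bp inside the start site (chromosome 3, 121749076 to 121749105). It was in no other list, and the next region of the whole list had 108.7. SLC30A5 followed at 62.6, its region ending 184 bp from the start site.

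A class IND.Extend region lay 808 bp upstream of NACA, a subunit of the nascent polypeptide-associated complex, at 38.9. An IND region inside RAB5B, an early endosome GTPase, 938 bp upstream of the start of SUOX, sulfite oxidase, had 35.4. The ATXN7 region, of class IND.Extend at 26.6, crossed the start site of that polyglutamine disease gene and also lay in THOC7, an mRNA export gene. The rest of the 8 strongest were ZNF330 at 24.1, THAP2 at 19.8 and ARL14EP at 19.8. The median signal was 9.91 for regions near start sites and 11.0 for those farther away, with no test.

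**Figure D4:**
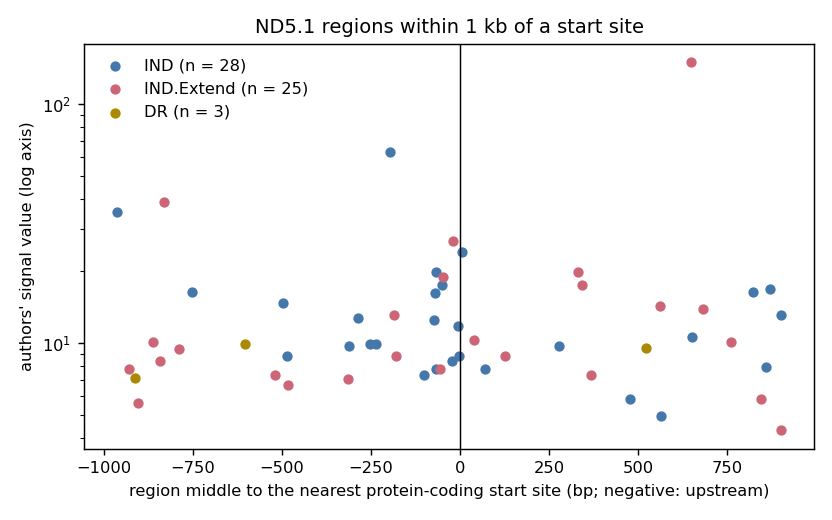
Signal value (log axis) of the 56 regions within 1 kb of a protein-coding start site against the distance from the region's middle to that site in bp, coloured by class. Upstream of the start site lie 34 of 56, and the GOLGB1 region at 148.6 stands above the SLC30A5 region at 62.6.

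The 12 strongest regions were 11 of class IND and the GOLGB1 region, with 8 of 12 on the plus strand and 8 of 12 in protein-coding genes. The region ranked 2, at 108.7, lay between genes, 217259 bp from KCNU1 on chromosome 8. GRK5 (92.0), a receptor kinase gene, CORO2B (82.5), an actin-binding coronin gene, and SV2B (75.1), a synaptic vesicle gene, held those ranked 3, 5 and 7. The region ranked 8 lay 85296 bp from OLIG2 at 73.1, and the region ranked 6 lay 867 bp from TRIM14 at 81.8. BLOC1S3 (58.7), a lysosome biogenesis gene, KLHDC8A (54.4) and AAK1 (53.96), an endocytosis kinase gene, held those ranked 10 to 12. Of the 12, 8 were in all 4 lists and 3 in ND5.1, ND5.3 and ND6.

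Class IND.Extend fell off steeply after GOLGB1. Its next regions lay in EXOC6, an exocyst subunit gene, at 43.9 (chromosome 10, 92850678 to 92850699), near NACA at 38.9 and in KALRN, a guanine nucleotide exchange factor gene, at 33.9. The fifth lay 1990 bp from SFMBT1 at 33.9. The class reached down to 3.88, in LINC00934.

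Class DL had 2 strong members, in FRMD4B, a scaffold gene, at 52.8 (chromosome 3, 69434326 to 69434341), and 212736 bp from TTC29 at 44.0. The next, in RPF1, a ribosome biogenesis gene, had 17.5, followed by 11.9 in the pseudogene AGAP7P and 11.2 in HSPA8. The lowest DL region, at 5.39, lay 36308 bp from FAM9C. Class DR was led by a region 6907 bp from ARRDC4 at 35.2 and the PKP4 region at 24.2. Below them stood regions in LINC01618 at 18.8, in HAS2-AS1 at 17.4 and in HLA-DQA1 at 15.7, and the lowest, in POC1A, a centriole gene, had 3.88. The lowest class IND region, in IKBKE, an innate immune kinase gene, had 4.10.

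Regions found for every editor sat high in the ND5.1 order. The 24 regions in all 4 lists had ranks from 2 to 326 with a median of 21.5, and a median signal of 44.95. These had to be called in every list, including the ND4 list of 83 regions. How far that selection sets their order was not tested. The 248 shared with ND5.3 and ND6 had a median of 12.5, the 11 shared with ND5.3 alone 8.19, and the 8 shared with ND6 alone 5.18. The 42 class IND regions of ND5.1 alone had a median of 10.9, between these groups.

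For the 280 regions shared with ND6, the signal values of both lists rose together, with a Spearman correlation of 0.74 across regions, which share class, strand and coordinates. The strongest 28 of each had 22 in common. For the 24 regions shared with ND4 the same correlation was 0.345. Scales were not compared between lists, only order. A region 2087 bp from ZKSCAN2 ranked 70 in ND5.1 and 258 in ND6 among the 280, and a region 11572 bp from NENF ranked 253 and 83. These were picked for their shift after the values were seen.

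**Figure D5:**
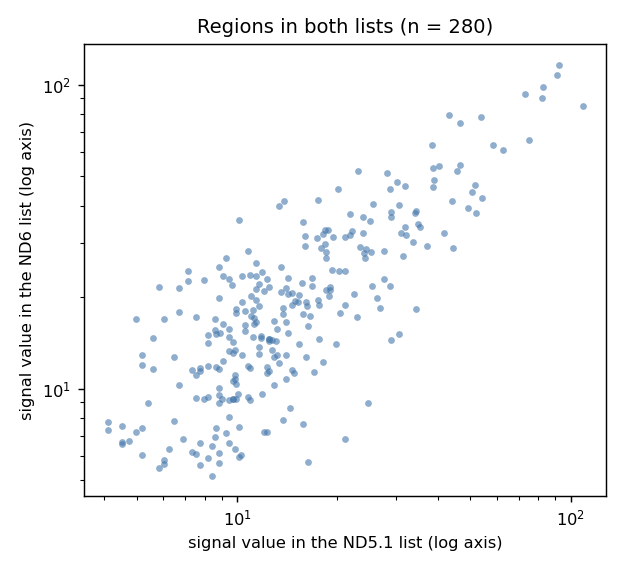
Signal value in the ND6 list against that in the ND5.1 list for the 280 regions that both hold, on log axes. The points rise together (Spearman correlation 0.74).

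Gene lists chosen for known function were hit as follows, beside the 1.49% of all protein-coding genes. Of 30 very long or fragile-site genes, 5 held a region (16.7%). They were WWOX, a tumour suppressor at a fragile site (32.0), RBFOX1, a splicing factor (17.4), CNTNAP2, a neurexin family gene (16.8), NAALADL2 (10.57) and DAB1, a reelin pathway adaptor (8.21). The 1.49% is not matched for gene length, and all hit genes had a median of 104.8 kb against 24.5 kb for protein-coding genes. The share of the long-gene list is therefore not read as a preference for its genes. Of 60 Golgi and vesicle traffic genes, 4 held a region, namely GOLGB1, AAK1, RAB5B and ARF3 (6.04), a share of 6.67%. Of 517 genes named ZNF with a number, 4 did (0.774%), namely ZNF341 (39.4), ZNF330 (24.1), ZNF142 (7.96) and ZNF536 (6.03). GOLGB1, AAK1 and RAB5B had appeared in earlier results of these data, so the traffic list is no independent evidence.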

How the data were processed

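Detect-seq pulldown and input libraries were made from HEK293T cells, and the files used here are 4 lists of regions. The build hg38 and the tools Bowtie2, cutadapt, Picard and SAMtools are named per the submitters' processing notes, without roles. The region caller and the pooling are not stated there. The signal value is a score that the authors deposited per region, with unstated normalization and unknown depth. Overlap of at least 1 bp counted as shared or as inside a gene. Gene bodies were taken from RefSeq on GRCh38.p14 (58419 genes on the 22 autosomes and X, 19821 protein-coding), and start sites, strands and sequences from RefSeq promoter windows of 250 bases before to 50 after a start. Exons and introns were not analysed here. The 5 Fisher tests (scipy 1.17.1, two-sided) were adjusted by Benjamini-Hochberg, with a threshold of 0.05, and treat regions as independent; p-values are printed for differences within the list alone. Functions were checked on simulated regions.

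The members, gene lists and tests were chosen with earlier results of these data known. Named regions were the 12 strongest, the 5 strongest and the lowest of each class, the 8 strongest within 1 kb of a start site, genes with 2 or more regions and hits of the gene lists. Alternatives varied overlap, windows, signal, class and merging.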

Additional observations from a re-analysis of the deposited data

How the results depend on the processing

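Over the alternatives run, no difference between classes that passed its test changed direction. Class IND alone gave a plus-strand share of 55.3% in place of 45.5% and a median signal of 12.5 in place of 10.99. The protein-coding gene body share of 51.6% became 56.7% for regions in no other list and 62.2% with genes of every type. The share near a start site, 10.7%, became 6.13% at 500 bp and 18.8% at 5 kb. Sharing with another list, 54.2%, became 65.2% in the upper 270 regions by signal. For IND.Extend minus IND, 2 differences that had missed the threshold passed it: 17.9 points in protein-coding bodies with the upper part of the signal (Fisher's exact test, adjusted p = 0.0311), and 10.6 points near start sites at 5 kb. Their other alternatives stayed short by the same test. With neighbours merged, adjusted p was 0.0695 for both. It was 0.0557 for gene bodies by the region's midpoint, and 0.153 near start sites with the upper part of the signal. With class IND alone on both sides, chosen after seeing the data, the gene body difference between ND5.1 and ND6 was 12.01 points in place of 13.0, with an interval that includes 0. Leaving out replicates was not possible, since the list is pooled, and depth is unknown. No paired analysis was possible because each list pools its libraries, so numbered samples have no values of their own.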

Other observations

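The signal values fall on a grid. Each of the 539 equals a whole number of steps of 0.2125 plus a whole number of steps of 0.00385, within a tolerance of 1e-09, with 18 to 688 large steps per region. Only 425 values are distinct, and 1 large step is 5.47% of the lowest value. What a step stands for is not given in the sources used here.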
